A study of Mus musculus with 4 samples.

Results

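The genes examined were those of the proteasome in RNA co-purified with TSSK2, a testis-specific serine kinase found in the late chromatoid body (late-CB) of elongating spermatids. They were chosen by symbol alone, as every gene called Psma, Psmb, Psmc, Psmd, Psme, Psmf or Psmg followed by a digit, with Psmc3ip left out, plus Pomp. There were 50 such genes among the 21936 in the count table, and the other 4 annotated symbols that fitted the rule were pseudogenes with no row there. Of the 50 genes, 43 had enough counts to be tested, and the 7 that did not were Psmb8, Psmb9, Psmb10, Psmb11, Psme2b, Psmg3 and Psmg4. The 50 genes lay on 16 chromosomes and took between 0.311% and 0.464% of the counts of a library.

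The proteasome is the protease that degrades proteins tagged with ubiquitin. Its 20S core is a barrel of stacked rings, in which the alpha subunits (Psma genes) form the gates and the beta subunits (Psmb genes) form the inner rings that cut. The 19S regulatory particle (Psmc ATPases and Psmd non-ATPases) binds the ubiquitin tag, unfolds the protein and feeds it into the core. Germ cells are known for variants of both ends: Psma8 is an alpha subunit of meiotic and later germ cells, closest in sequence to the ubiquitous Psma7, and Psme4 encodes PA200, an activator linked to the breakdown of acetylated histones when spermatids compact their chromatin.

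Both groups were made from germ cells of adult C57BL/6 mouse testes that were released with collagenase, cross-linked with paraformaldehyde, lysed and sonicated. The pellet fraction was immunoprecipitated with an antibody against TSSK2 (TSSK2-IP, 2 libraries) or with mouse IgG (control IgG-IP, 2 libraries), and the comparison asks which mRNAs are associated with TSSK2. No input library was analysed, so a level is a share of the RNA in the precipitate and not the amount in the cell, and a bulk precipitate cannot tell fewer cells of a type from less RNA per cell. Whether the libraries came from separate mice is not given in the labels, so p-values measure the spread between these libraries, which may be technical.

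The libraries held between 3938922 and 9858941 counts, and 1 count was worth between 0.156 and 0.23 normalized CPM (counts scaled to library size with TMM factors). IgG-IP replicate 1, the deepest library, stood apart. Its TMM factor was 0.652, against 1.117 in IgG-IP replicate 2 and 1.166 and 1.177 in TSSK2-IP. A factor below 1 raises normalized CPM. Over all genes, normalized CPM summed to 1.538e+06 in IgG-IP replicate 1, 9.05e+05 in IgG-IP replicate 2, and 8.62e+05 and 8.547e+05 in TSSK2-IP. The standard deviation over genes of the log2 difference between replicates was 1.08 for IgG-IP and 0.465 for TSSK2-IP. The main results that rest on IgG-IP replicate 1 are given with and without it. The testis origin was borne out by the spermatid markers fixed for the purpose (Prm1, Prm2, Tnp1, Tnp2, Acrv1, Odf1 and Spaca1), which summed to 3226 and 2919 normalized CPM in TSSK2-IP and to 4622 and 3414 in IgG-IP. Leydig cell markers summed to 35.5 and 34.6 normalized CPM in TSSK2-IP and to 14.4 and 33.3 in IgG-IP, and all 4 tested had a log2 fold change above 0, with a median of 0.73. Sertoli cell markers summed to 25.3 and 16.0 against 6.08 and 17.5 normalized CPM, and all 3 tested were above 0, with a median of 0.56. Immune cell markers summed to 18.4 and 29.3 against 20.1 and 26.4 normalized CPM, with 1 of 4 above 0. No marker on these lists passed the thresholds, and none was at 0 in all libraries.

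The mRNA of Psmb5 needs its sequence shown first, because its counts are the least certain among the genes that stood out. Psmb5 encodes the beta subunit with the chymotrypsin-like activity. Of its transcript of 899 bases, 99.78% had a copy elsewhere in GRCm38 at 97% identity or more. That copy is the processed pseudogene Gm3375 (chromosome 7, 3181062 to 3181959, plus strand, 99% identical over 898 bases). Below are 150 bases of coding sequence from exon 2 of Psmb5, chr14:54616611-54616760 on the minus strand, and the matching bases of the copy, chr7:3181353-3181502 on the plus strand, both 5′ to 3′ from GRCm38. This stretch was picked as the coding window of 150 bases with the most differences within the 97% limit. Capitals mark the 4 positions at which they differ, and a read that misses them matches both places. An untrimmed read of 150 bases over the whole stretch would cover all 4.
Psmb5: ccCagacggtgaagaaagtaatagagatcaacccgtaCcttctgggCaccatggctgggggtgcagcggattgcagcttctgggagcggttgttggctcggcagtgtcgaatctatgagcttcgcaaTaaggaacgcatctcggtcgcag
Gm3375: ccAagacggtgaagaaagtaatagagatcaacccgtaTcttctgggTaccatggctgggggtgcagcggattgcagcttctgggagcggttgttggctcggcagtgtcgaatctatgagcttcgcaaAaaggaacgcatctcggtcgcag

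Such copies were common in the family. At 97% identity over at least 100 bases, 10 of the 50 genes had a copy outside their own locus, and in 6 it covered at least 50% of the transcript. Besides Psmb5 these were Psma4 (99.66%), Psmb3 (97.39%), Psme2 (82.54%, by Psme2b), Psma5 (79.58%) and Psmd11 (54.6%). The counts of these genes are uncertain, since how reads with several matches were counted is not given in the sources used here. Psmb1, Pomp, Psma7 and Psma8, to which much of what follows refers, had no such copy.

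In edgeR's quasi-likelihood test, with p-values adjusted by Benjamini-Hochberg over 14722 genes, no proteasome gene passed both thresholds, which were 1 in either direction on the log2 scale and 0.05 for the adjusted p. Over all genes tested, 0.693% passed as higher in TSSK2-IP and 0% as lower. At an unadjusted p under 0.05, 3 of the 43 genes were higher (Psmb1, Psmb5 and Pomp) and 2 were lower (Psmd2 and Psmd4), against 8.34% and 4.89% of all genes. With DESeq2, 1 proteasome gene, Psmb1, passed as higher and 0 as lower, against 1.23% and 0.00768% of all genes. Psmb1 was also the 1 gene that edgeR called with no filter on low counts, against 1.33% of all genes called higher and 0.113% lower, and with the replicate number as a block, against 1.86% and 0.0204%. By size alone, 3 of the 43 genes had a log2 fold change of 1 or more and 6 had one of -1 or below, against 11.1% and 9.88% of all genes. The median log2 fold change, TSSK2-IP over IgG-IP, was -0.09 over the 43 genes, with 20 above 0 and 23 below, and -0.02 over all genes tested.

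**Figure D1:**
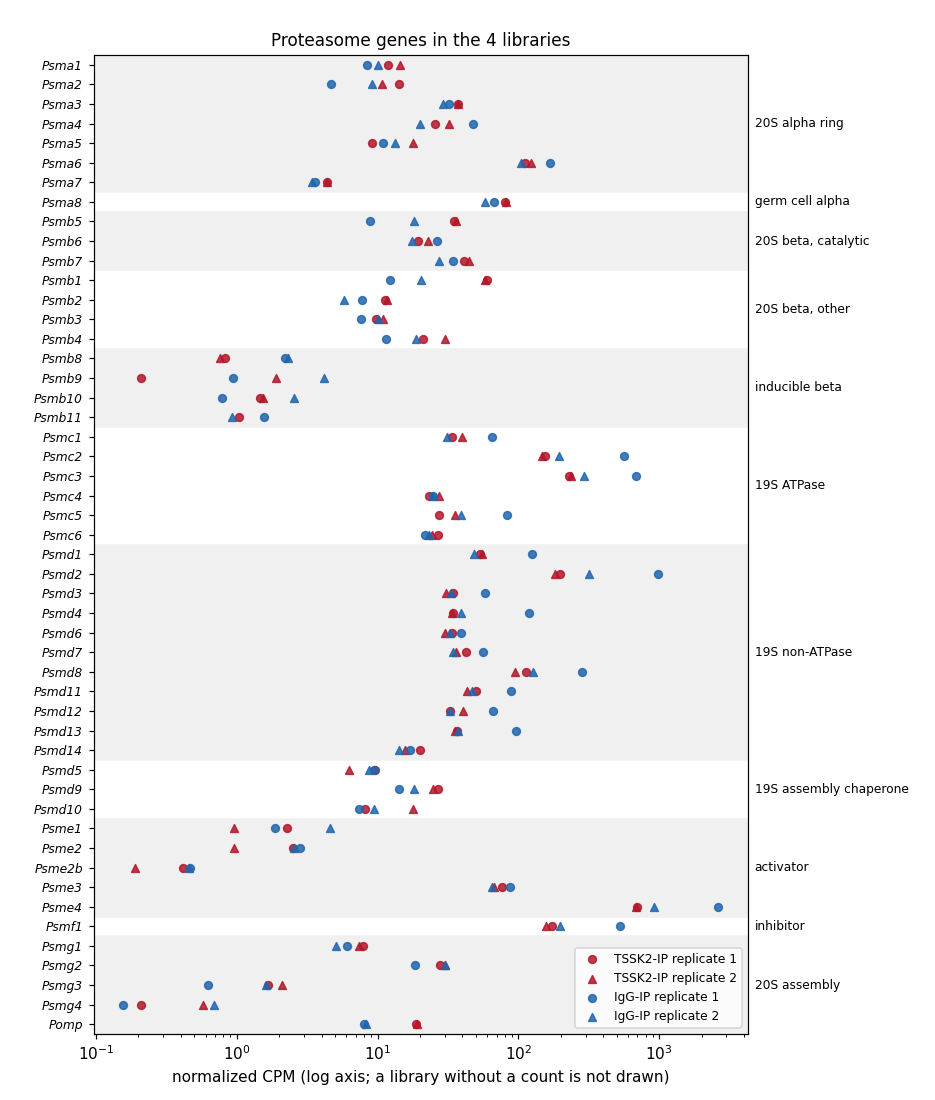
Normalized CPM (log axis) of the 50 proteasome genes in the 4 libraries, by role, with red for TSSK2-IP, blue for IgG-IP, circles for replicate 1 and triangles for replicate 2. The red points of a gene mostly lie close together, while the blue circle of IgG-IP replicate 1 lies far to the right for Psmd2, Psmc2, Psmc3, Psme4 and Psmf1 and to the left of the red points for Psmb1 and Psmb5.

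The subunits of the core and of the regulatory particle lay mostly on opposite sides of 0, a difference for which no test was run. Of the 14 constitutive 20S core genes (Psma1 to Psma7 and Psmb1 to Psmb7), 11 had a log2 fold change above 0, with a median of 0.39. The median was 0.28 for the alpha ring and 0.74 for the beta ring. Of the 17 genes of the 19S particle under the symbol rule, 14 had one below 0, with a median of -0.54, against 50.8% below 0 among all genes. Sem1 and Adrm1, 19S subunits outside the rule and so not among the 17, stood at 1.36 and -0.14 (edgeR adjusted p = 0.271 and 0.907). None of these 31 genes passed the thresholds. Both TSSK2-IP libraries lay above both IgG-IP libraries for 9 of the 14 core genes and for 1 of the 17 particle genes, against 27.3% of all genes, and below both for 0 of the core and 7 of the particle genes, against 21.6%. The Leydig and Sertoli cell markers given above also ran higher in TSSK2-IP, at medians of 0.73 and 0.56 beside 0.39 for the core. The groups overlapped for 1 of the 4 tested Leydig genes and for all 3 tested Sertoli genes. Without IgG-IP replicate 1, the Leydig and Sertoli medians were 0.41 and 0.22. The median was -0.26 for immune cell markers, and -0.36 and -0.26 for peritubular and endothelial markers, with 2 tested genes each. Among germ cell markers it was 0.37 for spermatogonia (3 of 5 above 0), -0.15 for spermatocytes and -0.02 for spermatids. The spermatogonium median was -0.27 without IgG-IP replicate 1. The part of these cells in the core's values was not tested.

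The 19S side of this contrast rested on IgG-IP replicate 1. Summed over the 17 particle genes, the level was 1144 and 1105 normalized CPM in TSSK2-IP, 3373 in IgG-IP replicate 1 and 1367 in IgG-IP replicate 2. The TMM factor of 0.652 raised the value for IgG-IP replicate 1. Unscaled, all 50 proteasome genes took 0.464% of its counts, against 0.333% in IgG-IP replicate 2 and 0.312% and 0.311% in TSSK2-IP. Without IgG-IP replicate 1, the median log2 fold change of the 19S particle was 0.03 with 6 of 17 genes below 0, and without IgG-IP replicate 2 it was -0.996. The core moved less. Its sum was 410.9 and 453.5 in TSSK2-IP and 383.2 and 307.4 in IgG-IP. Its median log2 fold change was 0.46 without IgG-IP replicate 1 and 0.30 without replicate 2, beside 0.05 and 0.14 for all genes. The particle sum over the core sum was 2.78 and 2.44 in TSSK2-IP against 8.8 and 4.45 in IgG-IP, so that the IgG-IP libraries differed from each other by more than the lower of them differed from TSSK2-IP. Leaving out the core genes with at least 50% of the transcript in copies gave a core median of 0.49 over 10 genes, 8 of them above 0. Transcripts of the particle genes were longer, with a median of 1636 bases against 1162.5 for the core. With offsets for transcript length and GC content the medians were -0.61 for the particle and 0.18 for the core, beside -0.09 for all genes. Within the core, the medians with these offsets were -0.004 for the alpha ring and 0.53 for the beta ring.

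**Figure D2:**
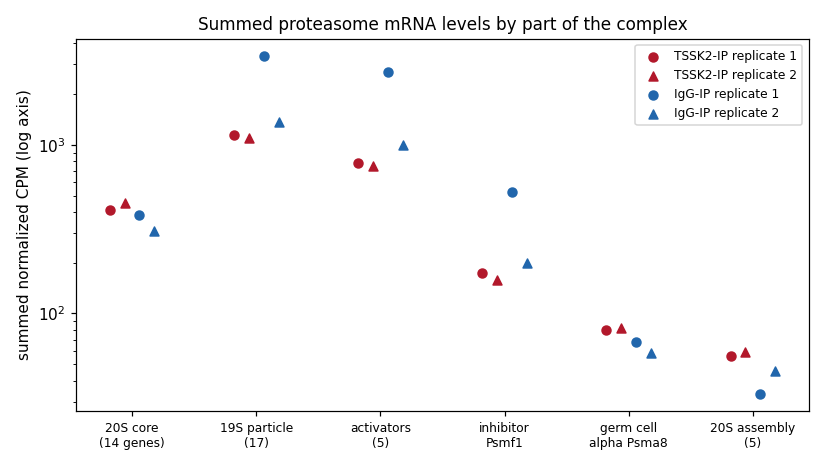
Summed normalized CPM (log axis) of each part of the proteasome in the 4 libraries, with the number of genes in brackets, red for TSSK2-IP and blue for IgG-IP. The TSSK2-IP sums for the 19S particle (1144 and 1105) lie below both IgG-IP sums (3373 and 1367), those for the 20S core (410.9 and 453.5) lie above both (383.2 and 307.4), and IgG-IP replicate 1 (blue circle) stands highest for the 19S particle, the activators and Psmf1.

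Among the beta subunits, the highest log2 fold change belonged to Psmb1 (chromosome 17, 15475021 to 15499751, minus strand), a subunit of the inner ring that carries no active site. It was at 59.9 and 57.7 normalized CPM in TSSK2-IP and at 12.2 and 20.2 in IgG-IP, from 289, 303, 78 and 88 counts. Both TSSK2-IP libraries were higher than both IgG-IP libraries, and the nearest pair of libraries was 2.85-fold apart. The log2 fold change was 1.87 (SE 0.42), or 3.64-fold, with an adjusted p of 0.0663 in edgeR's quasi-likelihood test. Psmb1 was the proteasome gene nearest to a call. Its adjusted p was 0.0424 with DESeq2 and 0.019 in edgeR with no filter on low counts. It was 0.0873 in edgeR with DESeq2 size factors, 0.116 with at least 10 counts in every library, 0.121 with length and GC offsets and 0.18 with upper-quartile normalization. Its log2 fold change lay between 1.59 and 2.20 when each library was left out in turn.

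Psmb5 was at 34.6 and 36.2 normalized CPM in TSSK2-IP and at 8.89 and 18.2 in IgG-IP, from 167, 190, 57 and 79 counts. The groups did not overlap, and its log2 fold change was 1.40 (SE 0.44, edgeR adjusted p = 0.231), with the limit set by the copy shown above. The other catalytic subunits did not follow it closely. Psmb7, with the trypsin-like activity, was at 40.8 and 44.7 against 34.5 and 27.1 normalized CPM, a log2 fold change of 0.47 (SE 0.39, edgeR adjusted p = 0.594). Psmb7 overlaps exons of Nek6 on the other strand over 11.8% of its exon bases, and whether the counting used strand is not given in the sources used here. Psmb6, with the caspase-like activity, was at 19.5 and 22.8 against 26.5 and 17.5 normalized CPM. The IgG-IP libraries of Psmb6 enclosed the TSSK2-IP libraries, and its log2 fold change of -0.06 (SE 0.41) had no stable sign. The other non-catalytic subunits lay between, at 0.75 for Psmb4, 0.74 for Psmb2 and 0.22 for Psmb3 on the log2 scale, with edgeR adjusted p-values of 0.449, 0.496 and 0.864.

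The inducible and tissue-specific beta subunits were near the limit of detection. Psmb8, Psmb9 and Psmb10, which replace catalytic subunits in the immunoproteasome, and Psmb11, known from the thymus, together summed to 3.52 and 4.19 normalized CPM in TSSK2-IP and to 5.46 and 9.88 in IgG-IP. Psmb8 had 4 counts in each TSSK2-IP library and 14 and 10 in the IgG-IP libraries, or 0.829 and 0.761 against 2.18 and 2.30 normalized CPM, so its groups did not overlap. Psmb9 had 1 and 10 counts against 6 and 18, so its groups overlapped. No member of this set had enough counts for the test. In edgeR with no filter on low counts, the log2 fold change of Psmb8 was -1.50 (SE 1.008, adjusted p = 0.556), and the other 3 genes had adjusted p-values from 0.633 to 0.983.

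Psma8, the germ cell alpha subunit, was more abundant than its ubiquitous counterpart Psma7 in every library. Psma8 had 386 and 429 counts in TSSK2-IP and 433 and 253 in IgG-IP. Psma7 had 21 and 23 counts in TSSK2-IP and 23 and 15 in IgG-IP. Per base of the principal transcript, the level of Psma8 was 9.93 and 10.1 times that of Psma7 in TSSK2-IP and 10.2 and 9.11 times in IgG-IP, and the 4 ratios barely differed. Per base of all annotated exons the ratios lay between 20.8 and 23.2. The mean log2 ratio of counts was 4.18 ± 0.02 (SD, n = 2) in TSSK2-IP and 4.12 ± 0.12 (SD, n = 2) in IgG-IP. The difference of 0.06 gave p = 1 in an exact two-sided permutation test, in which the smallest possible p with these libraries is 0.333. The coding sequences of both genes, of 744 and 750 bases, were 74.3% identical with a longest shared run of 17 bases, so their reads were separable.

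Both were somewhat higher in TSSK2-IP than in IgG-IP, within the error. Psma8 was at 80.0 and 81.6 normalized CPM in TSSK2-IP and at 67.6 and 58.1 in IgG-IP, a log2 fold change of 0.36 (SE 0.41, edgeR adjusted p = 0.708). Psma7 was at 4.35 and 4.38 against 3.59 and 3.45 normalized CPM, a log2 fold change of 0.31 (SE 0.67, edgeR adjusted p = 0.868). Neither pair of groups overlapped, which 27.3% of all genes tested also showed in this direction.

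**Figure D3:**
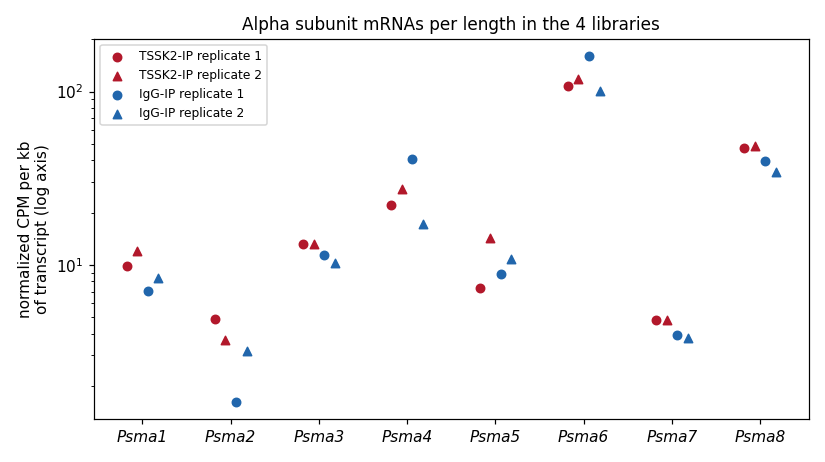
Normalized CPM per kilobase of the principal transcript (log axis) of the 8 alpha subunit genes in the 4 libraries, red for TSSK2-IP and blue for IgG-IP. Psma6 is highest in every library (100.3 to 160.1), Psma8 lies about 10 times above Psma7 (9.11 to 10.2), and the groups differ little beside the differences between genes.

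Within the alpha ring of 7 ubiquitous subunits, levels per transcript length spanned 22.5-fold in TSSK2-IP replicate 1 and 99.5-fold in IgG-IP replicate 1. Psma6 was the highest in every library, at 107.2 and 118.3 normalized CPM per kilobase in TSSK2-IP and at 160.1 and 100.3 in IgG-IP. Psma2 or Psma7 was the lowest, depending on the library. Psma2 had the highest log2 fold change of the ring at 0.85 (SE 0.51, edgeR adjusted p = 0.465). Its levels of 14.1 and 10.7 normalized CPM in TSSK2-IP lay above the 4.68 and 9.19 of IgG-IP. The log2 fold change of Psma2 was 0.48 without IgG-IP replicate 1 and 1.33 without IgG-IP replicate 2. Psma6 and Psma4 had log2 fold changes of -0.21 and -0.23, and for both IgG-IP replicate 1 was the highest library and IgG-IP replicate 2 the lowest.

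In the 19S base, the ATPases Psmc1 to Psmc6 form the ring that unfolds substrates. Psmc3 had the highest level per transcript length, from 139.1 to 416.7 normalized CPM per kilobase over the libraries. Psmc6 had the lowest, from 9.64 to 11.97. Psmc2 had the lowest log2 fold change of the ring, -1.32 (SE 0.63, edgeR adjusted p = 0.385). It was at 155.5 and 147.7 normalized CPM in TSSK2-IP, 565.6 in IgG-IP replicate 1 and 193.2 in IgG-IP replicate 2. Its log2 fold change was -0.29 without IgG-IP replicate 1 and -1.97 without IgG-IP replicate 2. Psmc3 followed with -1.07 and Psmc5 with -0.96, while Psmc4 and Psmc6 stood at 0.03 and 0.19. Without IgG-IP replicate 1, Psmc3 stood at -0.27 and Psmc5 at -0.25. Psmc3 overlaps Slc39a13 on the other strand over 8.25% of its exon bases.

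The lowest log2 fold change of all 43 genes belonged to Psmd2, a scaffold subunit at the top of the 19S base. It was at 197.8 and 181.3 normalized CPM in TSSK2-IP against 986.1 and 319.8 in IgG-IP. Both TSSK2-IP libraries were lower, and IgG-IP replicate 1 was 3.08 times replicate 2. The log2 fold change was -1.78 (SE 0.71), with an edgeR adjusted p of 0.32. It was -0.70 without IgG-IP replicate 1 and -2.45 without IgG-IP replicate 2. Psmd4, a receptor for ubiquitin chains, was at 34.2 and 33.5 normalized CPM against 118.1 and 38.8. Its log2 fold change of -1.22 (SE 0.50, edgeR adjusted p = 0.332) became -0.14 without IgG-IP replicate 1 and -1.87 without IgG-IP replicate 2. The deubiquitinase Psmd14 was the 1 non-ATPase above 0, at 0.20 on the log2 scale.

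The 19S assembly chaperones are not part of the finished particle. Psmd9 and Psmd10 had log2 fold changes of 0.67 and 0.64, and Psmd5 had -0.20, with edgeR adjusted p-values of 0.467, 0.573 and 0.885. Only for Psmd9 among these 3 were both TSSK2-IP libraries, at 27.0 and 24.5 normalized CPM, above both IgG-IP libraries, at 14.2 and 18.2. Of all genes tested, 27.3% showed this order. A lincRNA on the other strand, Gm26745, overlaps 25.5% of the exon bases of Psmd9.

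**Figure D4:**
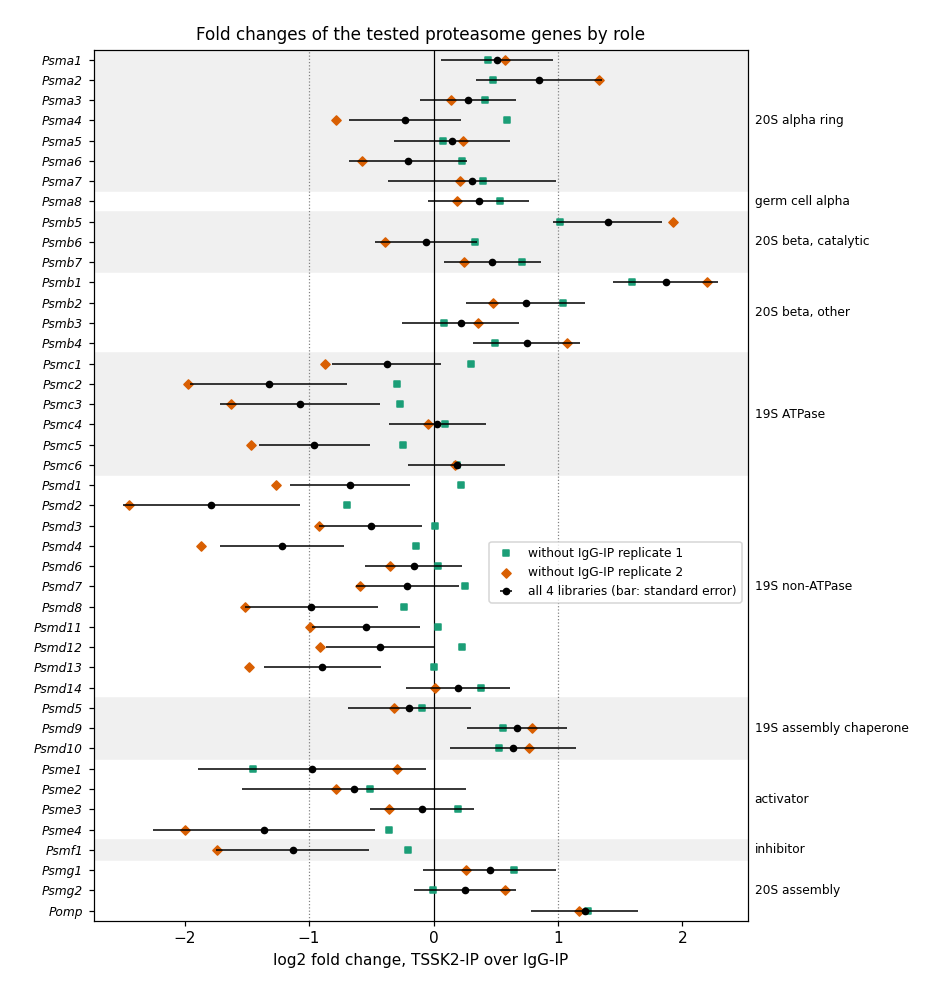
Log2 fold change, TSSK2-IP over IgG-IP, of the 43 tested proteasome genes by role. Black points and bars give the edgeR estimate and its standard error over all 4 libraries, green squares the estimate without IgG-IP replicate 1, orange diamonds without IgG-IP replicate 2, and dotted lines a log2 fold change of 1 and -1. For Psmd2, Psmd4, Psmc2, Psme4 and Psmf1 the green squares lie between -0.70 and -0.14, while Psmb1, Psmb5 and Pomp stay above 1 under each.

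Psme4 took more counts than any other proteasome gene in every library, with the longest principal transcript of the 50 (6491 bases). Per kilobase it was below Psmc3 throughout, at 107.2 and 105.2 normalized CPM in TSSK2-IP and at 404.8 and 141.7 in IgG-IP. Without the division by length, it was at 695.7 and 683.1 normalized CPM in TSSK2-IP, 2627 in IgG-IP replicate 1 and 920 in IgG-IP replicate 2, from 3356, 3590, 16839 and 4004 counts. The TSSK2-IP libraries differed little and both were lower than IgG-IP, whose replicates differed 2.86-fold. Its share of all proteasome counts was 25.9% (95% Wilson interval 25.1 to 26.6) and 25.7% (24.9 to 26.4) in TSSK2-IP and 36.8% (36.3 to 37.2) and 30.5% (29.7 to 31.3) in IgG-IP, intervals that cover counting error only. The log2 fold change was -1.36 (SE 0.89, edgeR adjusted p = 0.499), and -0.36 without IgG-IP replicate 1 and -2.00 without replicate 2. Psme3, the nuclear activator PA28 gamma, was at 76.3 and 67.2 normalized CPM against 87.7 and 65.0, with groups that overlapped. Psme1 and Psme2, the interferon-inducible PA28 subunits, were at or below 4.595 normalized CPM in every library. Psmf1, an inhibitor of the 20S core, had a log2 fold change of -1.13 (SE 0.62, edgeR adjusted p = 0.423), from 174.3 and 157.6 normalized CPM against 528.6 and 199.0. For Psmf1 too, IgG-IP replicate 1 was the library far above the rest, and the value was -0.21 without it.

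Of the 20S assembly factors, Pomp differed most. Pomp encodes the maturation protein that helps the immature core form and is degraded as its first substrate. It was at 18.7 and 19.03 normalized CPM in TSSK2-IP and at 7.96 and 8.27 in IgG-IP, from 90, 100, 51 and 36 counts. Replicates of each group lay close together and the groups were well apart, with the nearest libraries 2.26-fold apart. The log2 fold change was 1.21 (SE 0.43, edgeR adjusted p = 0.272), and it stayed between 1.17 and 1.24 when each library was left out in turn. Unlike the 19S genes, its value did not rest on IgG-IP replicate 1, which was 0.962 times IgG-IP replicate 2. The chaperones Psmg1 and Psmg2 had log2 fold changes of 0.45 and 0.25, and Psmg3 and Psmg4 were too low to test.

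The calls differed with the IgG-IP library that served as the control, except for Psmb1, Psmb5 and Pomp, which were called higher with either one alone. Without IgG-IP replicate 1, edgeR called these 3 proteasome genes higher and 0 lower, against 5.38% and 2.56% of all genes. Without IgG-IP replicate 2, it called 5 higher, adding Psma2 and Psmb4, and 10 lower, against 17.9% and 17.4%. The 10 were Psmc2, Psmc3, Psmc5, Psmd1, Psmd2, Psmd4, Psmd8, Psmd13, Psme4 and Psmf1. In both fits the lone control library is assumed to vary like the TSSK2-IP libraries. Without TSSK2-IP replicate 1 or replicate 2, 0 proteasome genes were called, against 0.137% and 0.202% of all genes called higher and 0% lower. Over the 43 genes, the log2 fold change and the ratio of IgG-IP replicate 1 to replicate 2 had a Spearman correlation of -0.787, beside -0.51 over 14710 genes. Both quantities share IgG-IP replicate 1, so this is a description of the same libraries. The median of that ratio was 2.07 for the 19S particle and 0.937 for the core, against 0.893 for all genes.

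Genes that work with the proteasome but fall outside the symbol rule were listed separately. Of 23 such genes, 22 were found in the table, 21 were tested and 0 passed the thresholds in edgeR, against 0.693% of all genes called higher and 0% lower. At an unadjusted p under 0.05, 1 was higher and 3 were lower, against 8.34% and 4.89%. The log2 fold change was below 0 for 18 of the 21, against 50.8% of all genes, with a median of -0.78. The highest was Sem1, the smallest subunit of the 19S particle, whose symbol does not follow the Psm series. It was at 38.1 and 38.6 normalized CPM in TSSK2-IP and at 8.11 and 22.1 in IgG-IP, a log2 fold change of 1.36 (SE 0.48, edgeR adjusted p = 0.271). For Sem1 the value was 0.855 without IgG-IP replicate 1 and 2.17 without IgG-IP replicate 2. As for the 19S genes, the median of the list was 0.02 without IgG-IP replicate 1.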

How the data were processed

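RNA from 2 TSSK2-IP and 2 control IgG-IP precipitates was sequenced as directional libraries. Per the labels, the authors trimmed reads with Trimmomatic 0.39, aligned them to GRCm38 with STAR 2.7.10a (the methods name another STAR version) and counted them with featureCounts 2.0.3. They deposited raw counts per gene, and strand and multi-mapping settings are not given in the sources used here. Symbols came from GENCODE vM21 (21894 of 21936 identifiers matched). TMM-scaled counts of the 14722 genes that filterByExpr retained were fitted with glmQLFit and glmQLFTest of edgeR 4.0.16 (R 4.3.3), and each standard error was derived from the fitted difference and its F. On simulated data for the same comparison, this procedure was tested before use. The simulation gave every library the same dispersion, so it did not cover the wider spread of the IgG-IP libraries. Copies were sought with BLAST+ 2.17.0. Library totals were 4158034, 4491749, 9858941 and 3938922 counts. Alternatives were DESeq2 1.42.0, other size factors and filters, a replicate block, leaving out each library, and, chosen after seeing the data, offsets for transcript length and GC content. The members and lists were chosen with earlier results of these data known. Full values were given by rule for Psma8, Psma7, Psmb1, Psmb5, Psmb6, Psmb7, Pomp and Psme4 and for the genes with the highest and lowest log2 fold changes.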

Additional observations from a re-analysis of the deposited data

How the results depend on the processing

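No more than 1 proteasome gene passed the thresholds unless a control library was left out. The count was 1 (Psmb1) with DESeq2, with no filter on low counts and with the replicate block, where its adjusted p in edgeR was 0.0177, and it ranged from 0 to 15 when each library was left out. For the associated genes that range was 0 to 13, the 13 (1 higher, 12 lower) coming without IgG-IP replicate 2, where 17.9% of all genes were called higher and 17.4% lower. The median log2 fold change of the proteasome genes was -0.23 with DESeq2 size factors, which moved the median of all genes to -0.14, and -0.28 with length and GC offsets. It ranged from -0.32 to 0.22 when each library was left out. These ends came without IgG-IP replicate 2 and replicate 1, where the medians of all genes were 0.14 and 0.05. The difference in the Psma8 to Psma7 log2 ratio ranged from -0.03 to 0.15, with the sign turned without IgG-IP replicate 2 (-0.0253). Psmb6 turned to 0.0158 with at least 10 counts in every library, and ranged from -0.39 to 0.34 when each library was left out. The causes were not tested. Psma8, Psma7, Psmb1, Psmb5, Psmb7, Pomp, Psme4, Psma2, Psmd2, Psmc2 and Psmd4 kept their direction under each alternative run. Other genes given with a log2 fold change did not all do so. Without IgG-IP replicate 1, Psma4 turned to 0.59, Psma6 to 0.23 and Psmg2 to -0.005. Adrm1, outside the rule, turned to 0.29 without that library. Psmd14 turned to -0.02 without TSSK2-IP replicate 1. Without TSSK2-IP replicate 2, Psmd10 turned to -0.05, Psmd5 to 0.06 and Psmc4 to -0.10. Psmc4 also turned to -0.04 without IgG-IP replicate 2 and to -0.05 with DESeq2.

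Replicate numbers were shared between the groups. The difference between replicates in TSSK2-IP and that in IgG-IP had a correlation of 0.126 over genes. With only 2 possible pairs, this value cannot decide whether same-numbered libraries were paired. The replicate block raised the calls over all genes to 274 higher and 3 lower from 102 and 0. DESeq2 called 160 and 1, no filter 283 and 24, upper-quartile normalization 20 and 0, at least 10 counts in every library 29 and 0, and leaving out each library between 23 and 2755 higher and between 0 and 2688 lower. Genes under 25 counts in every library, 10 of the 50, could show only large differences at this depth.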
